A study of Mus musculus with 6 samples.

Results

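The genes of cholesterol synthesis, handling and efflux were followed in mouse CD4+ T cells treated with a MAPK13 inhibitor or with DMSO. The 30 genes were listed by symbol, from the sterol-regulated transcription factor SREBP2 through the enzymes of the pathway to the transporters that export cholesterol. They were looked up among the 35602 genes of the count table. All 30 were found there, and all 30 were also listed in the tables of the replicate 1 pair, which hold 34714 genes.

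CD4+ T cells from spleen were stimulated through CD3 and CD28 for 72 h and kept with MAPK13-IN-1, a small-molecule inhibitor of the kinase MAPK13, or with DMSO, a common solvent, before their RNA was sequenced. Each group had 3 libraries. In replicates 2 and 3 the mice were labelled wild type (WT), and 17.1 µM inhibitor or 0.1 µl DMSO was added after day 1 per the labels, whereas the series design has the inhibitor present during the stimulation. For the replicate 1 pair the labels give the tissue, the cells and the treatment, and no dose. The paper names C57BL/6J and BALB/c mice and does not say which strain gave these libraries, and no age or sex is given in the sources used here.

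Cells meet their need for cholesterol by making it from acetyl-CoA through mevalonate and squalene, and by taking it up. When sterols in the endoplasmic reticulum are scarce, SCAP carries SREBP2 to the Golgi, where it is cut into an active transcription factor of the synthesis genes, and INSIG proteins hold it back when sterols are plentiful. When oxysterols accumulate, the nuclear receptors LXRα and LXRβ instead raise transporters that export cholesterol, and activated T cells are known to raise synthesis and lower efflux as they divide.

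The counted libraries held 26874805 and 28487403 counts with DMSO and 33854760 and 32617702 counts with MAPK13-IN-1, and the lowest count of any of the 30 genes was 118. Levels are given as CPM, counts per 1000000 scaled by TMM, a method that adjusts library sizes to the bulk of the genes. The replicate 1 pair came from another library kit, is given as FPKM, a length-normalized level whose unit the authors do not name, and entered no test, because each group has 1 such library of unknown depth. Replicates of the same group were further apart than counting noise. Their mean chi-square per gene was 2.94 (median 0.98) with DMSO and 8.82 (median 1.92) with MAPK13-IN-1. The replicates were kept as separate samples. Nothing in the labels says that they came from separate cultures or animals, so p-values measure only the spread between these samples, which may be technical.

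T cell genes were present in all of these libraries, with 7084 and 7497 counts of *Cd4* in the DMSO replicates and 9477 and 9594 in the MAPK13-IN-1 replicates. The inhibitor libraries held more counts in all. Scaled by TMM, *Cd4* was at 275 and 276 CPM with DMSO and 267 and 283 CPM with MAPK13-IN-1 (log2 fold change −0.00064), so that the groups overlapped. Of 7 CD4 T cell markers tested, 6 were lower with MAPK13-IN-1 and 0 were higher, and the one that did not pass was *Cd4*. Of all genes tested, 32.3% were lower and 31.5% higher. Their summed level, scaled by library totals, was 1596 and 1618 CPM with DMSO and 947 and 1065 CPM with the inhibitor, with *Cd5* as the most abundant gene with DMSO and *Cd4* with the inhibitor. The same sum in the replicate 1 pair was 1024 (DMSO) and 934 (inhibitor) FPKM. Genes of B cells were counted as well, and of the 6 markers 4 were higher and 1 was lower. Their summed level was 966 and 940 CPM with DMSO and 1159 and 1179 CPM with MAPK13-IN-1, led by *Pax5* with the inhibitor, and in the replicate 1 pair it was 44.2 and 32.7 FPKM. With MAPK13-IN-1 the B cell sum exceeded the CD4 T cell sum in the counted libraries, whereas in the replicate 1 pair it was far below it. Most markers of both cell types moved with the treatment in the counted libraries. Fewer cells of a type and less RNA per cell cannot be told apart in bulk RNA. The part of both cell types in the results below, and in their difference from the replicate 1 pair, was not tested.

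Most cholesterol genes were higher in MAPK13-inhibitors-treated cells. In edgeR, with Benjamini-Hochberg adjusted p-values under 0.05 as the threshold, 22 of the 30 genes rose and 4 fell, while over all 16269 genes tested 10374 passed (63.8%), 31.5% higher and 32.3% lower. The median log2 fold change was 0.44 over the 30 genes and 0.012 over all genes tested. The groups did not overlap for 28 of the 30 genes, against 83.0% of all genes. No gene of the list fell by as much as 1 on the log2 scale, and 5 rose by more than 1 (*Sc5d*, *Mylip*, *Dhcr7*, *Stard4* and *Hsd17b7*). Over all 16269 genes tested, 2113 were called higher and 1686 lower by more than 1. Of the 4 lower genes, 2 (*Srebf2* and *Nr1h2*) were still called without MAPK13-IN-1 replicate 2. When libraries were scaled by their totals alone, the median of all genes moved up by 0.13 on the log2 scale. Relative to the median of all genes, 24 of the 30 genes lay above it and 6 below it, a count that the scaling of whole libraries leaves as it is.

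**Figure D1:**
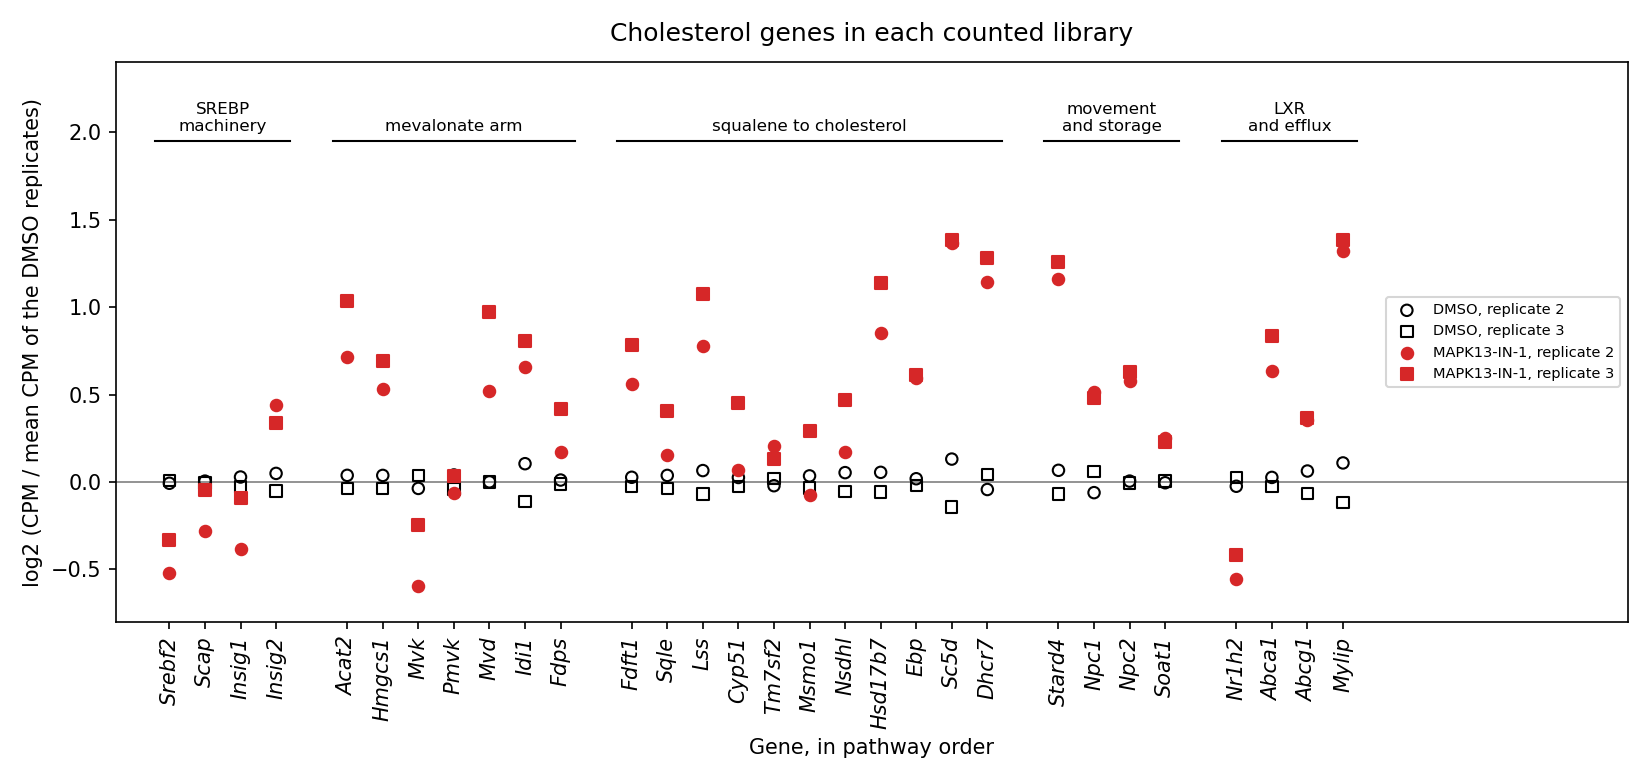
Level of each of the 30 genes in the 4 counted libraries, as the log2 ratio of its CPM to the mean CPM of the DMSO replicates, in pathway order (open symbols DMSO, filled symbols MAPK13-IN-1, circles replicate 2, squares replicate 3). The filled symbols lie above the open ones for most synthesis genes and below them for *Srebf2*, *Scap*, *Insig1*, *Mvk* and *Nr1h2*, and MAPK13-IN-1 replicate 3 lies above replicate 2 for 26 of the 30 genes.

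The gene of SREBP2 itself was lower, unlike most of the enzymes it drives. *Srebf2*, which encodes SREBP2 (chr15:82147181-82205379 of GRCm38, + strand), was at 588 and 594 CPM in the DMSO libraries and 412 and 470 CPM in the MAPK13-IN-1 libraries. Both inhibitor libraries lay below both DMSO libraries, and the log2 fold change was −0.42 (standard error, SE, 0.0639, Benjamini-Hochberg adjusted p = 0.000203 in edgeR). *Srebf2* was also lower with the inhibitor in the replicate 1 pair, at 60.4 against 80.6 FPKM. *Scap*, the escort protein of SREBP2, was at 191 and 190 CPM with DMSO and 157 and 185 CPM with MAPK13-IN-1. The groups did not overlap, but MAPK13-IN-1 replicate 3 lay close to the DMSO libraries and the difference did not pass (log2 fold change −0.16, SE 0.0754, Benjamini-Hochberg adjusted p = 0.0883 in edgeR). Without that replicate the log2 fold change was −0.29, without MAPK13-IN-1 replicate 2 it was −0.044, and with library-total scaling it was −0.034. *Scap* went the other way in the replicate 1 pair, from 21.5 FPKM with DMSO to 31.4 FPKM.

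The INSIG genes moved in opposite directions. *Insig1*, itself a target of SREBP2 and located at chr5:28071363-28078662, was at 87.8 and 84.4 CPM with DMSO and 65.9 and 80.8 CPM with MAPK13-IN-1. The inhibitor libraries were below the DMSO libraries, replicate 3 by little, and the difference was near the threshold (log2 fold change −0.23, SE 0.0906, Benjamini-Hochberg adjusted p = 0.0454 in edgeR). It was −0.090 without MAPK13-IN-1 replicate 2 and −0.21 without DMSO replicate 2, and passed in neither case, and it was −0.39 without MAPK13-IN-1 replicate 3. It was also not called with RLE, upper-quartile or library-total scaling, where its log2 fold change was −0.22, −0.15 and −0.11, nor with DESeq2 (−0.22) or with at least 10 counts in every library (−0.19), and in the replicate 1 pair it was at 27.8 and 28.6 FPKM. *Insig2*, which is not a target of SREBP2, rose from 44.4 and 41.4 CPM with DMSO to 58.2 and 54.2 CPM with MAPK13-IN-1. Both inhibitor libraries were above both DMSO libraries (log2 fold change 0.39, SE 0.0776, Benjamini-Hochberg adjusted p = 0.00133 in edgeR). The replicate 1 pair had 7.76 (DMSO) and 10.6 (inhibitor) FPKM.

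Of the 7 genes that lead from acetyl-CoA to farnesyl diphosphate, 5 were higher and 1 was lower, with a median log2 fold change of 0.61. Of all genes tested, 31.5% were higher and 32.3% lower. *Acat2*, the cytosolic thiolase that opens the pathway, was at 39.6 and 37.5 CPM with DMSO and 63.3 and 79.0 CPM with MAPK13-IN-1. *Hmgcs1*, which makes HMG-CoA (chr13:119690379-119708260), was at 121 and 114 CPM with DMSO and 169 and 190 CPM with MAPK13-IN-1. In both genes every inhibitor library exceeded every DMSO library, and replicate 3 was the higher of the inhibitor libraries. The log2 fold change of *Acat2* was 0.88 (SE 0.102, Benjamini-Hochberg adjusted p = 3.12e-05 in edgeR) and that of *Hmgcs1* was 0.61 (SE 0.0689, Benjamini-Hochberg adjusted p = 2.56e-05 in edgeR). The replicate 1 pair did not show these rises, with 23.5 (DMSO) and 22.9 (inhibitor) FPKM for *Acat2*, and 37.7 and 31.4 FPKM for *Hmgcs1*.

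The later enzymes of this arm were less uniform. *Mvk*, mevalonate kinase, was at 17.7 and 18.6 CPM with DMSO and 12.0 and 15.3 CPM with MAPK13-IN-1, a log2 fold change of −0.41 that passed the test. It was the one enzyme of the 30 genes called lower, and the call was lost without MAPK13-IN-1 replicate 2 (−0.25), without DMSO replicate 3 (−0.38), with library-total scaling (−0.29) and with DESeq2 (−0.40). *Pmvk*, phosphomevalonate kinase, was at 41.4 and 39.1 CPM with DMSO and 38.5 and 41.3 CPM with MAPK13-IN-1, so that the groups overlapped. *Mvd*, the decarboxylase that forms isopentenyl diphosphate, was at 40.4 CPM in both DMSO libraries and at 58.0 and 79.3 CPM in the MAPK13-IN-1 libraries. *Idi1*, the isomerase of that product, was at 59.0 and 50.7 CPM with DMSO and 86.5 and 96.1 CPM with MAPK13-IN-1. For *Mvd* and *Idi1* the inhibitor libraries lay above the DMSO libraries, and for *Mvd* replicate 3 stood well above replicate 2. The log2 fold change of *Mvd* was 0.76 (SE 0.124, Benjamini-Hochberg adjusted p = 0.000332 in edgeR) and that of *Idi1* was 0.73 (SE 0.0864, Benjamini-Hochberg adjusted p = 3.51e-05 in edgeR). *Fdps*, farnesyl diphosphate synthase, was at 110 and 109 CPM with DMSO and 123 and 147 CPM with MAPK13-IN-1, a log2 fold change of 0.30 that passed and fell to 0.16, still passing, without MAPK13-IN-1 replicate 3. Values in the replicate 1 pair put *Mvk* at 8.82 (DMSO) and 9.47 (inhibitor) FPKM, *Mvd* at 18.0 and 19.5 FPKM and *Idi1* at 33.2 and 44.3 FPKM. There *Pmvk*, at 21.3 and 16.1 FPKM, and *Fdps*, at 104 and 76.0 FPKM, were lower with the inhibitor.

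Of the 11 genes from squalene synthase to the last reductase, 9 were higher and 0 were lower, with a median log2 fold change of 0.60. The shares of all genes tested were 31.5% and 32.3%. *Fdft1*, which joins farnesyl units to squalene and is the first step committed to sterols, was at 97.6 and 94.0 CPM with DMSO and 142 and 165 CPM with MAPK13-IN-1. *Lss*, which folds squalene epoxide into lanosterol, was at 87.7 and 80.0 CPM with DMSO and 144 and 176 CPM with MAPK13-IN-1. Both genes were clearly separated between the groups, again with MAPK13-IN-1 replicate 3 as the highest library. *Sc5d*, the lathosterol desaturase (chr9:42251595-42264256, − strand), was at 35.7 and 29.5 CPM with DMSO and 84.0 and 85.2 CPM with MAPK13-IN-1. *Dhcr7*, which completes one route to cholesterol (chr7:143823145-143848410), was at 30.4 and 32.2 CPM with DMSO and 69.1 and 76.1 CPM with MAPK13-IN-1. In both genes each inhibitor library exceeded the sum of the DMSO libraries. The log2 fold change was 0.68 for *Fdft1* (SE 0.0769, Benjamini-Hochberg adjusted p = 2.75e-05 in edgeR) and 0.93 for *Lss* (SE 0.0934, Benjamini-Hochberg adjusted p = 1.14e-05 in edgeR). It was 1.38 for *Sc5d* (SE 0.0903, Benjamini-Hochberg adjusted p = 6.51e-07 in edgeR) and 1.21 for *Dhcr7* (SE 0.0803, Benjamini-Hochberg adjusted p = 6.84e-07 in edgeR). None of these rises was matched in size in the replicate 1 pair, where *Fdft1* was at 22.5 (DMSO) and 23.1 (inhibitor) FPKM, *Lss* at 8.29 and 7.26 FPKM, *Sc5d* at 13.7 and 14.5 FPKM and *Dhcr7* at 8.33 and 7.22 FPKM.

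The other enzymes of the sterol arm covered a wide range of change. *Hsd17b7*, the ketosteroid reductase of the C-4 demethylation complex, was at 16.0 and 14.8 CPM with DMSO and 27.8 and 33.8 CPM with MAPK13-IN-1, a log2 fold change of 1.00. *Ebp*, the sterol isomerase, was at 22.3 and 21.7 CPM with DMSO and 33.2 and 33.6 CPM with MAPK13-IN-1, a log2 fold change of 0.60. Both passed the test with close replicates within the DMSO group, and both were also higher with the inhibitor in the replicate 1 pair, at 9.56 against 5.87 FPKM for *Hsd17b7* and 20.2 against 16.6 FPKM for *Ebp*. *Sqle*, squalene epoxidase and a control point of the pathway, was at 70.8 and 67.2 CPM with DMSO and 76.9 and 91.5 CPM with MAPK13-IN-1. *Cyp51*, which removes the C-14 methyl group of lanosterol, was at 118 and 114 CPM with DMSO and 122 and 159 CPM with MAPK13-IN-1. *Nsdhl*, the dehydrogenase of the demethylation complex, was at 19.4 and 18.0 CPM with DMSO and 21.1 and 25.9 CPM with MAPK13-IN-1. In these genes MAPK13-IN-1 replicate 2 lay just above the DMSO libraries and replicate 3 carried most of the difference. Their log2 fold changes of 0.29, 0.27 and 0.33 passed the test, and without MAPK13-IN-1 replicate 3 they were 0.15, 0.064 and 0.16, of which the first still passed. Without DMSO replicate 3 the values were 0.24, 0.24 and 0.26 and passed in none of the 3 genes. The call of *Cyp51* was also lost with limma-voom (adjusted p = 0.0605), and that of *Nsdhl* with DESeq2 (adjusted p = 0.0774). Without MAPK13-IN-1 replicate 2 that of *Cyp51* was 0.45. *Tm7sf2*, a sterol reductase, at 6.75 and 6.95 CPM with DMSO and 7.89 and 7.50 CPM with MAPK13-IN-1, and *Msmo1*, the C-4 methyl oxidase, at 52.4 and 49.9 CPM with DMSO and 48.6 and 62.6 CPM with MAPK13-IN-1, did not pass. The groups overlapped for *Msmo1*, which passed with a log2 fold change of 0.29 without MAPK13-IN-1 replicate 2. In the replicate 1 pair *Sqle* (32.7 and 25.9 FPKM), *Cyp51* (35.3 and 28.6 FPKM) and *Msmo1* (36.8 and 29.9 FPKM) were lower with the inhibitor, while *Tm7sf2* (4.38 and 5.74 FPKM) and *Nsdhl* (8.92 and 11.3 FPKM) were higher.

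All 4 genes that move or store cholesterol inside the cell rose in MAPK13-inhibitors-treated cells (median log2 fold change 0.55), as against 31.5% of all genes tested. *Stard4*, a soluble carrier of cholesterol and a target of SREBP2, was at 105 and 95.7 CPM with DMSO and 224 and 240 CPM with MAPK13-IN-1. *Npc2*, the lysosomal protein that takes cholesterol from digested lipoproteins, was at 491 and 488 CPM with DMSO and 731 and 757 CPM with MAPK13-IN-1. *Npc1*, the membrane protein to which it hands cholesterol, was at 69.1 and 75.1 CPM with DMSO and 103 and 101 CPM with MAPK13-IN-1. The groups were far apart in all 3 genes relative to their replicates. The log2 fold change was 1.21 for *Stard4* (SE 0.0669, Benjamini-Hochberg adjusted p = 2.29e-07 in edgeR), 0.60 for *Npc2* (SE 0.0485, Benjamini-Hochberg adjusted p = 2.52e-06 in edgeR) and 0.50 for *Npc1* (SE 0.0669, Benjamini-Hochberg adjusted p = 9.10e-05 in edgeR). *Soat1*, which esterifies cholesterol for storage, was at 53.1 and 53.5 CPM with DMSO and 63.6 and 62.3 CPM with MAPK13-IN-1. Its rise was small and exceeded the spread of the replicates (log2 fold change 0.24, SE 0.0676, Benjamini-Hochberg adjusted p = 0.009998 in edgeR). The call was lost when either DMSO library was left out, at 0.22 without replicate 2 and 0.24 without replicate 3 of that group. Within the replicate 1 pair *Npc2* went from 161 FPKM with DMSO to 315 FPKM and *Npc1* from 11.9 to 16.1 FPKM, while *Stard4* was at 16.4 and 15.3 FPKM and *Soat1* at 5.26 and 5.23 FPKM.

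The efflux side was higher as well, although the receptor gene was lower. *Nr1h2*, which encodes LXRβ, was at 159 and 164 CPM with DMSO and 110 and 121 CPM with MAPK13-IN-1. Both inhibitor libraries were lower (log2 fold change −0.48, SE 0.0646, Benjamini-Hochberg adjusted p = 8.89e-05 in edgeR), and in the replicate 1 pair the values were 41.6 (DMSO) and 39.5 (inhibitor) FPKM. *Abca1*, which loads cholesterol onto apolipoproteins (chr4:53030787-53159895, − strand), was at 4.58 and 4.41 CPM with DMSO and 6.99 and 8.03 CPM with MAPK13-IN-1. *Abcg1*, which exports cholesterol to high-density lipoprotein (chr17:31057675-31117988), was at 31.1 and 28.5 CPM with DMSO and 38.2 and 38.4 CPM with MAPK13-IN-1. *Mylip*, a ubiquitin ligase through which LXR limits cholesterol uptake (chr13:45389742-45412022), was at 5.51 and 4.71 CPM with DMSO and 12.7 and 13.3 CPM with MAPK13-IN-1. For all 3 targets of LXR the inhibitor libraries lay above the DMSO libraries, where the groups did not overlap in either direction for 83.0% of all genes tested. The log2 fold change was 0.74 for *Abca1* (SE 0.158, Benjamini-Hochberg adjusted p = 0.00207 in edgeR), 0.36 for *Abcg1* (SE 0.0845, Benjamini-Hochberg adjusted p = 0.00360 in edgeR) and 1.35 for *Mylip* (SE 0.139, Benjamini-Hochberg adjusted p = 1.38e-05 in edgeR). Without DMSO replicate 3 the change of *Abcg1* was 0.29 and did not pass. The replicate 1 pair had all 3 higher with the inhibitor, from 0.311 to 2.30 FPKM for *Abca1*, 2.26 to 5.35 FPKM for *Abcg1* and 0.791 to 1.31 FPKM for *Mylip*.

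Macrophages and dendritic cells express efflux genes strongly, and although the study's methods purify CD4 T cells from spleen with a kit, their markers were counted and moved in the same direction as the LXR targets. Of 7 macrophage markers tested (of 8 listed), 5 were higher and 0 lower, and their summed level, scaled by library totals, was 12.8 and 11.6 CPM with DMSO and 43.7 and 36.1 CPM with MAPK13-IN-1, led by *Cd68*. *Lyz2* had 16 and 17 counts with DMSO and 195 and 112 counts with MAPK13-IN-1, and *Mertk* had 0 counts in both DMSO libraries. *Marco*, among the higher genes, had 0 and 4 counts with DMSO and 32 and 18 with MAPK13-IN-1, and so entered the test through the inhibitor libraries alone. All 4 dendritic cell markers were higher, with a summed level of 18.4 and 18.6 CPM with DMSO and 61.5 and 51.1 CPM with MAPK13-IN-1, led by *Zbtb46*. Of these *Xcr1*, at 0 and 4 counts with DMSO and 27 and 16 with MAPK13-IN-1, likewise entered through the inhibitor libraries. In the replicate 1 pair the sums were 2.99 and 9.52 FPKM for macrophages and 3.36 and 14.6 FPKM for dendritic cells, so that both lists were higher with the inhibitor there too. Erythroid markers, of which 3 of 4 tested were higher, were at 5.36 and 5.16 CPM with DMSO and 58.9 and 43.0 CPM with MAPK13-IN-1, led by *Hbb-bs* with the inhibitor, and at 0.854 and 1.31 FPKM in the replicate 1 pair. Of 4 neutrophil markers, *Mpo* had 2 counts in each DMSO library and 17 and 16 with MAPK13-IN-1, and it alone had enough counts to be tested, again through the inhibitor libraries. *S100a9* had 0 counts in all 4 libraries, and the list, led by *Mpo* with the inhibitor, summed to 0.223 and 0.176 CPM with DMSO and 0.561 and 0.797 CPM with MAPK13-IN-1, and to 0.533 and 0.351 FPKM in the replicate 1 pair. The CD8 T cell genes, both lower and led by *Cd8b1*, summed to 11.2 and 10.4 CPM with DMSO and 5.76 and 8.16 CPM with MAPK13-IN-1, and to 3.49 and 8.39 FPKM. Of all genes tested, 31.5% were higher and 32.3% lower. The part of these cell types in the change of *Abca1*, *Abcg1*, *Mylip*, *Npc1* and *Npc2* was not tested.

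SREBP2 targets and LXR efflux targets therefore changed in the same direction in the counted libraries. Of 21 SREBP2 targets, 15 were higher and 3 (*Srebf2*, *Insig1* and *Mvk*) were lower, with a median log2 fold change of 0.60. All 3 LXR efflux targets were higher, with a median of 0.74. Of all genes tested, 31.5% were higher and 32.3% lower, with a median of 0.012. Without MAPK13-IN-1 replicate 2, 1 SREBP2 target (*Srebf2*) was called lower, as with library-total scaling. In the replicate 1 pair the lists parted, with a median log2 ratio of (FPKM + 1) of −0.035 over the SREBP2 targets, 0.96 over the LXR efflux targets and 0.069 over the 15825 tested genes that it also lists. There 10 of the 21 SREBP2 targets were above 0 and 11 below it, as against 9520 and 6223 of all genes, and 1 of them (*Hsd17b7*) was past 1.5-fold higher and 0 past 1.5-fold lower, as against 12.9% and 5.46% of all genes. All 3 LXR efflux targets were above 0, and 2 of them (*Abca1* and *Abcg1*) were past 1.5-fold higher. The difference between the replicate 1 pair and the counted libraries was not tested.

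**Figure D2:**
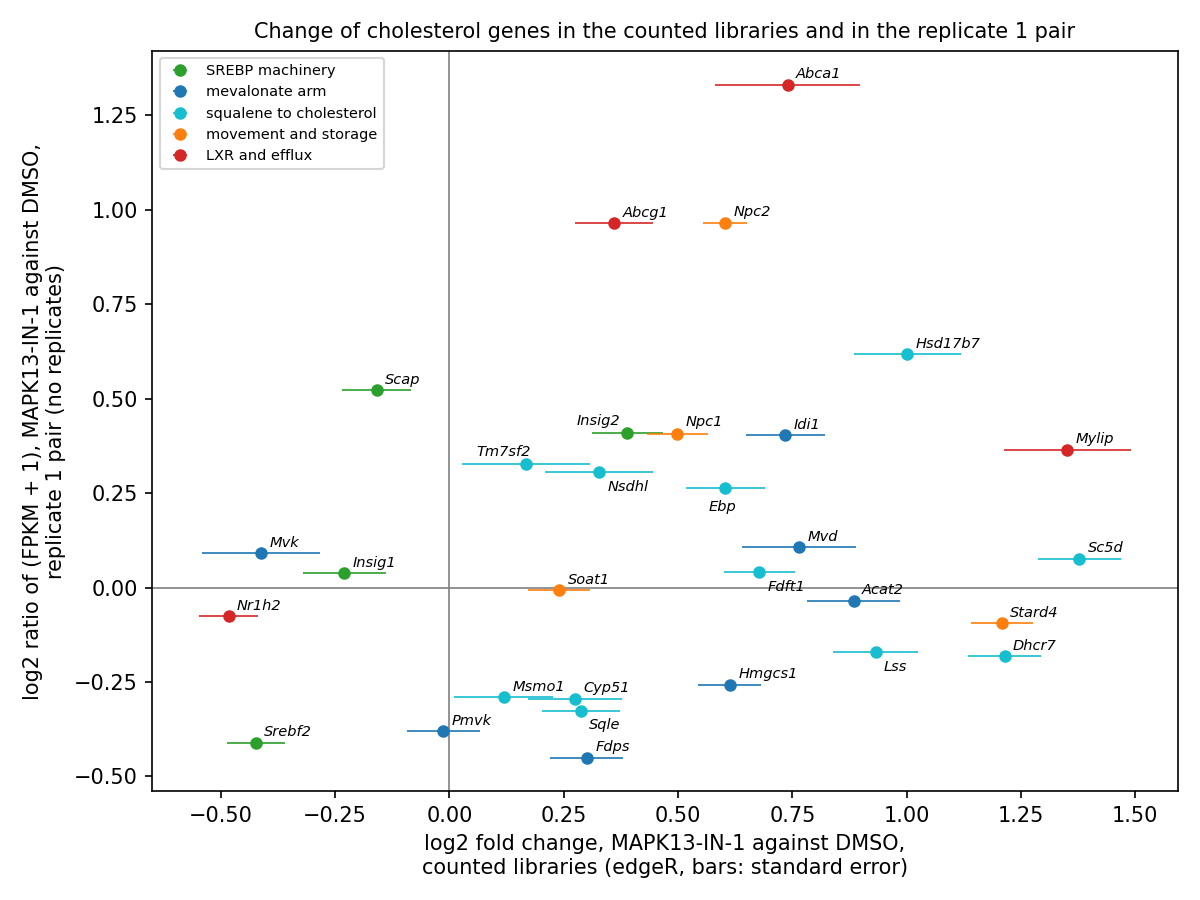
Log2 ratio of each of the 30 genes in the replicate 1 pair (vertical, 1 library per group, no error) against its log2 fold change in the counted libraries (horizontal, bars show the standard error), coloured by role. The LXR targets *Abca1*, *Abcg1* and *Mylip* lie above 0 on both axes, whereas 11 of the 21 SREBP2 targets lie below 0 on the vertical axis.

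The MAPK13-IN-1 replicates were not equal for these genes. Replicate 3 exceeded replicate 2 in 20 of the 21 SREBP2 targets (95.2%), as against 51.3% of all genes tested. In the DMSO group replicate 2 exceeded replicate 3 in 17 of the 21 (81.0%), as against 49.1% of all genes. The median log2 ratio of the SREBP2 targets was 0.49 between the libraries numbered 2 and 0.63 between those numbered 3. Some other lists differed between the inhibitor replicates in the same direction, with replicate 3 above replicate 2 for 3 of 3 LXR efflux targets, 9 of 9 fatty acid genes driven by SREBP1 and 8 of 8 proliferation genes, and others did not, with 5 of 12 genes of the isoprenoid branches, 6 of 12 of sterol transfer and ester hydrolysis and 2 of 4 of movement and storage.

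Per kilobase of annotated exon, the order of levels was wide. *Npc2* was the most abundant of the 30 genes in both groups, at a mean of 90.1 CPM per kilobase with DMSO and 137 with MAPK13-IN-1, followed by *Srebf2* at 82.3 and 61.4. With DMSO *Nr1h2* (48.1) and *Insig1* (27.8) came next, whereas with MAPK13-IN-1 *Stard4* (41.5) and *Hmgcs1* (39.1) took these places. *Stard4* moved from rank 12 to rank 3 and *Insig1* from rank 4 to rank 12. *Abca1* was the lowest in both groups, at 0.434 and 0.724 CPM per kilobase, and *Tm7sf2* was next to it at 1.56 and 1.75. These lengths are exon unions and may exceed the transcripts that the cells use.

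Other genes of sterol metabolism, taken from lists written alongside the 30 genes, were mixed. Of the further synthesis genes, *Aacs*, acetoacetyl-CoA synthetase, rose by a log2 fold change of 0.47, and *Erg28*, a scaffold of the demethylation complex, was lower by a log2 fold change of −0.77. *Rnf145*, a ubiquitin ligase of the endoplasmic reticulum, rose from 145 and 134 CPM with DMSO to 321 and 294 CPM with MAPK13-IN-1 (1.14), while most other genes of SREBP activation and sterol-regulated degradation were lower, among them *Aup1* (−0.74) and *Rnf139* (−0.37). The 12 genes of the isoprenoid branches, with 4 higher and 5 lower and a median of 0.053, included *Rabggta* (−0.97), *Pggt1b* (0.73) and *Rabggtb* (0.54), subunits of prenyltransferases. Over all genes tested 31.5% were higher and 32.3% lower.

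Genes of uptake and transfer moved in both directions. *Vldlr*, a lipoprotein receptor, was at 93.7 and 88.3 CPM with DMSO and 32.2 and 40.8 CPM with MAPK13-IN-1 (log2 fold change −1.32). The groups lay far apart, and in the replicate 1 pair *Vldlr* was at 2.15 and 0.359 FPKM. *Scarb1*, a receptor for high-density lipoprotein, was higher with a log2 fold change of 0.36. Of 12 genes for sterol transfer and ester hydrolysis, 3 were higher and 6 were lower, as against 31.5% and 32.3% of all genes tested. *Osbpl2*, an oxysterol-binding protein relative, was at 87.6 and 92.6 CPM with DMSO and 21.8 and 22.1 CPM with MAPK13-IN-1 (−2.04). *Gramd1c*, of a family that carries cholesterol from the plasma membrane to the endoplasmic reticulum, was at 2.17 and 2.32 CPM with DMSO and 14.9 and 14.0 CPM with MAPK13-IN-1 (2.68). *Lipa*, the lysosomal acid lipase, was at 28.7 and 29.1 CPM with DMSO and 61.6 and 54.4 CPM with MAPK13-IN-1 (1.01). In all 3 genes the groups were well separated.

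Partners and further targets of LXR did not follow *Abca1* as a group. Of 7 genes tested, 1 was higher and 1 was lower, with a median log2 fold change of −0.14. Of all genes tested, 31.5% were higher and 32.3% lower. The lower gene was a partner (*Rxrb*) and the higher one a target (*Abcg4*). The targets *Lpcat3* (−0.15), *Arl4c* (−0.18) and *Smpdl3a* (0.17), named after their values were seen, did not pass. *Rxrb*, a retinoid X receptor with which LXR pairs, was at 85.7 and 96.1 CPM with DMSO and 37.1 and 45.1 CPM with MAPK13-IN-1 (−1.15). *Abcg4*, a transporter, was at 0.776 and 0.883 CPM with DMSO and 1.52 and 1.98 CPM with MAPK13-IN-1, with a log2 fold change of 1.07 that did not pass without DMSO replicate 2 (0.97), without MAPK13-IN-1 replicate 3 (0.86) or with DESeq2 (adjusted p = 0.116). The replicate 1 pair had 6 of these 7 genes higher with the inhibitor, with a median log2 ratio of 0.38. Among the genes of oxysterol metabolism and sensing, *Gpr183*, a receptor for oxysterols, was at 42.3 and 45.2 CPM with DMSO and 58.2 and 62.9 CPM with MAPK13-IN-1 (0.47). *Cyp27a1*, a sterol hydroxylase, had 5 and 8 counts with DMSO and 44 in each MAPK13-IN-1 library, through which alone it passed the filter. *Hsd3b7*, of bile acid synthesis, had a log2 fold change of 0.63, which was 0.43 without DMSO replicate 3 and did not pass there. *Rxrg*, *Ch25h*, *Cyp7b1* and *Cyp46a1*, named after their values were seen, had too few counts to be tested.

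The fatty acid genes driven by SREBP1 were higher for 7 of 9, with none lower and a median log2 fold change of 0.36. Of all genes tested, 31.5% were higher and 32.3% lower. *Scd1* was at 72.5 and 66.2 CPM with DMSO and 161 and 172 CPM with MAPK13-IN-1 (1.26), *Elovl6* rose by 1.20 and *Scd2* by 0.77, enzymes that desaturate and elongate fatty acids. In the replicate 1 pair 7 of the 9 were above 0, not all of them the genes that were higher in the counted libraries. *Srebf1*, which encodes SREBP1, was itself lower in the counted libraries, at 210 and 216 CPM with DMSO and 150 and 166 CPM with MAPK13-IN-1 (−0.43), and was at 28.3 and 30.5 FPKM in the replicate 1 pair. Proliferation genes went the other way, with 7 of 8 lower, as against 32.3% of all genes tested, and a median of −0.90. All 8 were lower in the replicate 1 pair. *Pcna*, the sliding clamp of DNA replication, was at 369 and 351 CPM with DMSO and 154 and 196 CPM with MAPK13-IN-1 (−1.04). *Mcm2*, of the replicative helicase, changed by −1.07 and *Ccnb1*, a mitotic cyclin, by −1.18. The part of cell division in the change of the synthesis genes was not tested.

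Because many synthesis genes moved together, their promoters were searched for the letters of known elements. RefSeq promoters (GRCm38.p6) were matched for 24 of the 30 genes, and the 250 bases before the start were searched on both strands. The element TCACNCCAC, one form of the sterol regulatory element, was found in 1 of the 24 genes, *Hmgcs1*, and in 1.22% of all 27025 genes with a promoter (1.05% of all 32851 promoters). CCAAT, the letters read by NF-Y, was found in 20 of the 24 genes as against 37.5% of all genes, and in 66.7% of the promoters of the 24 as against 33.8% of all promoters. GGGCGG, a GC box, was found in 21 of the 24 genes as against 35.4% of all genes, and in 76.7% of the promoters of the 24 as against 32.7%. AGGTCA, a hexamer read by nuclear receptors, was found in 3 of the 24 genes (12.5%) as against 15.8% of all genes, and in 16.7% of the promoters of the 24 as against 14.0%, so that the order depends on the unit. Of the genes with a promoter, CCAAT was present in 14 of 16 that were higher, 3 of 4 that were lower and 3 of 4 that did not pass. Windows of 60 bases are printed in the direction of the gene for *Hmgcs1* (chr13:119690188-119690247, + strand), with the sterol regulatory element in capitals, and for *Sc5d* (chr9:42264301-42264360, − strand), *Srebf2* (chr15:82147106-82147165, + strand) and *Mylip* (chr13:45389647-45389706, + strand), with CCAAT in capitals as its reverse complement ATTGG, to show the same letters before a synthesis gene that rose, a regulator that fell and a target of LXR.
Hmgcs1: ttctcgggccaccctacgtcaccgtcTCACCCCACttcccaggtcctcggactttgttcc
Sc5d: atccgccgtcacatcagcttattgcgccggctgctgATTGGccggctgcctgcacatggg
Srebf2: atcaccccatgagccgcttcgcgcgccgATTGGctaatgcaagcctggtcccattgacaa
Mylip: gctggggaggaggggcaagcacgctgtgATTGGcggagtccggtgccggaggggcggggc
A match of letters is a description of the sequence and not evidence of a site.

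Some of the 30 genes share exons with another annotated gene, so that counts could include reads of the neighbour. In GENCODE M21, 9 of the 30 have such an overlap. The largest was that of *Fdps*, 26.7% of whose exon bases are shared on the same strand with *Gm43738*. *Fdft1* shares 18.3% with *Ctsb* on the opposite strand, *Tm7sf2* shares 12.1% with *Vps51* on the same strand, and *Npc1* shares 4.52% with *Rmc1* on the opposite strand. *Ctsb* was itself higher, at 233 and 236 CPM with DMSO and 454 and 413 CPM with MAPK13-IN-1. The values of these genes are uncertain by an amount that was not measured here, since use of strand in the counting of replicates 2 and 3 is not stated. The 3 LXR efflux targets, *Srebf2*, *Insig1*, *Sc5d*, *Dhcr7* and *Stard4* have no such overlap.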

How the data were processed

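Sequenced RNA of CD4+ T cells from mouse spleen was analysed, with libraries grouped by the labels. For replicates 2 and 3 the authors deposited raw counts per gene, and the submitters' processing notes name fastp 0.21.0, HISAT2 2.1.0, StringTie 2.1.5 and DESeq2 1.30.1, with build mm10. For the replicate 1 pair the authors deposited length-normalized values, read here as FPKM, and the notes name FastQC and HISAT2. The annotation is not given in the sources used here.

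The count table was fitted with edgeR 4.0.16 under R 4.3.3. Low genes were dropped with filterByExpr (minimum count 10, minimum total 15), libraries were scaled by TMM, with factors from 0.955 to 1.05, and groups were compared by the quasi-likelihood test, 2 libraries against 2 without covariates, with Benjamini-Hochberg adjustment over 16269 genes. All 30 genes passed the filter. Replicate 1 ratios used a pseudocount of 1 on the FPKM, which understates changes of low values. Marker sums were scaled by library totals. The script was tested on simulated counts. Coordinates, lengths and overlaps came from GENCODE M21 (GRCm38, the build mm10) and promoters from RefSeq, where 26 of 30 promoter entries could be placed in transcripts of their gene and 0 when reversed.

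The members and lists were chosen with earlier results of these data known. Full statistics were given for *Srebf2*, *Insig1*, *Insig2*, *Abca1*, *Abcg1*, *Mylip* and up to 4 genes per role, ranked by p-value, and other lists were represented by up to 3 called genes, ranked in the same way, of which some are not reported here. Alternatives were RLE, upper-quartile and library-total scaling, other filters, a block for the replicate number, DESeq2 1.42.0, limma-voom (limma 3.58.1), each library left out, stricter thresholds and, for the replicate 1 pair, a pseudocount of 0.1 or at least 1 FPKM in both libraries. *Trac* was not used here.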

Additional observations from a re-analysis of the deposited data

Results flagged for a closer look

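For 11 of the 26 genes called in the counted libraries, both numbered comparisons there (replicate 2 against 2 and 3 against 3) went one way and the replicate 1 pair went the other (42.3%), as against 33.6% of all 10193 called genes that this pair lists. The difference was not tested, and the replicate 1 pair comes from another library kit and has no replicates. *Fdps*, *Sqle*, *Cyp51* and *Hmgcs1* were higher in the counted libraries and had log2 ratios of −0.45, −0.33, −0.29 and −0.26 in the replicate 1 pair. *Dhcr7*, *Lss*, *Stard4*, *Acat2* and *Soat1* were likewise higher in the counted libraries, with replicate 1 ratios of −0.18, −0.17, −0.094, −0.035 and −0.0075. *Mvk* and *Insig1* were lower in the counted libraries and had replicate 1 ratios of 0.092 and 0.038. Several of these ratios are near 0, and measured from the median of all genes in that pair (0.069) *Insig1* lies on the same side as in the counted libraries and *Fdft1* on the other, so that 11 of 26 again differ, as against 37.1% of all called genes. The other 15 called genes, the 3 LXR efflux targets among them, had the same sign in the replicate 1 pair.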

How the results depend on the processing

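Of 420 values of the 30 genes under the alternatives, 363 kept their direction and their side of the threshold, 47 lost their call, 3 gained one and 7 changed sign, all of the last in genes that were not called. The sign changes were those of *Pmvk*, at 0.00086 with RLE, 0.068 with upper-quartile scaling, 0.11 with library totals, 0.032 with at least 10 counts in every library and −0.071 to 0.037 with each library left out (above 0 without DMSO replicate 2 or MAPK13-IN-1 replicate 2), and of *Msmo1*, at −0.082 to 0.29 with each library left out (below 0 without MAPK13-IN-1 replicate 3).

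The number of the 30 genes called lower was 4, and 2 with library totals, DESeq2 or an adjusted p-value under 0.01, which left 19 of the 30 genes and 12 SREBP2 targets called higher. The number of SREBP2 targets called lower was 3, and 1 under each of the same settings. With library totals the median of the SREBP2 targets was 0.73, a shift of the size of that of all genes. Requiring an absolute log2 fold change over 1 left 3799 genes in all, 5 of the 30 genes higher and 0 lower, 4 SREBP2 targets higher and 0 lower, and 1 LXR efflux target higher, which follows from the stricter rule. With each library left out in turn, genes called lower numbered 2 to 5 of the 30 and 1 to 3 of the SREBP2 targets, and genes called higher 17 to 23 of the 30 (22 with all libraries), 12 to 16 of the SREBP2 targets (15) and 2 to 3 of the LXR efflux targets (3), where the counts of higher genes were fewest without DMSO replicate 3. There the lone library of a group was assumed to vary like the other group. With a pseudocount of 0.1 the replicate 1 median of the LXR efflux targets was 1.21, the smaller pseudocount weighing low values more. Requiring at least 1 FPKM in both libraries left only 1 LXR efflux target there (*Abcg1*, at 0.96).

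The replicate number as a replicate block gave 10645 genes called in place of 10374 and 5 of the 30 genes lower in place of 4, *Scap* being added. The deviations of libraries with the same number had a correlation of 0.005 over the genes tested. With 2 counted libraries per group this cannot show whether libraries of the same number share a culture, an animal or a day. The labels do not say. Cell type markers moved with the treatment, both groups had 2 counted libraries, and the replicate 1 pair has no error, which limits each comparison above. For the other moved counts the cause was not tested.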
